A study of Mesocricetus auratus with 6 samples.

Results

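The suprachiasmatic nucleus (SCN) is the small paired nucleus of the hypothalamus that times daily rhythms in mammals, and its RNA was compared here between 1 pool of *duper* and 1 pool of wild-type Syrian hamsters. A gene entered the comparison where the mean of its 2 TPM values was at least 1 and its estimated counts over both pools came to at least 30, and 16689 of the 31593 genes in the deposited tables met both limits. TPM scales a gene's reads for transcript length and library total, so levels given in TPM are per length. At the TPM limit, *LOC101838223* was just inside with a mean of 1.00 TPM and a log2 ratio of 0.13, and *Dhrs9* was just outside with a mean of 0.999 TPM and a log2 ratio of 0.42.

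The study asked how loss of *Cry1* function shows in the transcriptome, and it sequenced SCN, cortex and liver at circadian time 15, in the early subjective night. All hamsters were raised in a 14:10 light-dark cycle. The wild-type pool held 4 hamsters of the LVG stock, 2 males and 2 females. The *duper* pool held 4 females that carried the *duper* allele, a frameshift of *Cry1* that arose in hamsters with the tau mutation of casein kinase 1 epsilon, and their line had been crossed to LVG and lacked tau. RNA of the 4 hamsters was mixed before 1 library was made, so there was no replicate within the SCN and no test was possible. Sex and genotype cannot be told apart in these pools.

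In the clock of every cell, CLOCK and BMAL1 (the product of *Arntl*) switch on the Per and Cry genes, whose proteins return to the nucleus and repress CLOCK and BMAL1. Accessory loops run through the nuclear receptors of the Nr1d and Ror genes and through the output factors *Dbp*, *Tef*, *Hlf* and *Nfil3*. SCN neurons are almost all GABAergic. They are told apart by peptides such as vasoactive intestinal peptide, vasopressin, gastrin-releasing peptide and neuromedin S, and they keep each other in step through receptors such as VPAC2, the product of *Vipr2*. The nucleus lies on the optic chiasm beside the third ventricle, so a dissected sample can also hold myelin, meninges, ependyma and neighbouring hypothalamus.

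The wild-type SCN library held 29936218 estimated counts and the *duper* SCN library 7248840, which is 4.13 times fewer. The ratio reported for each gene is log2 of (*duper* TPM + 1) over (wild-type TPM + 1). The interval beside it is a 95% Clopper-Pearson interval of the ratio without the added 1, computed from the rounded counts. It covers counting error only, not the spread between hamsters or dissections, and for genes of a few TPM the ratio with the added 1 can lie nearer to 0 than the whole interval. A gene is called higher or lower below where its log2 ratio was past 0.58 (about 1.5-fold) and its counting interval lay clear of 0.

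The 2 SCN pools were close for most genes. The median log2 ratio over the 16689 genes was 0.02, with quartiles of −0.16 and 0.16. Higher in *duper* were 545 genes (3.27%) and lower were 750 genes (4.49%), of which 150 and 271 were past 2-fold. In the cortex pools of the same hamsters, measured in the same way, 4.10% of 15136 genes were higher and 3.12% were lower, so the shares of SCN and cortex were of like size. A level under 1 TPM in one of the pools was found for 475 genes, and 227 of these were higher or lower, many having entered through the pool in which they were high. Genes with a provisional LOC symbol were 21.0% of the genes measured and 43.9% of those higher or lower.

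**Figure D1:**
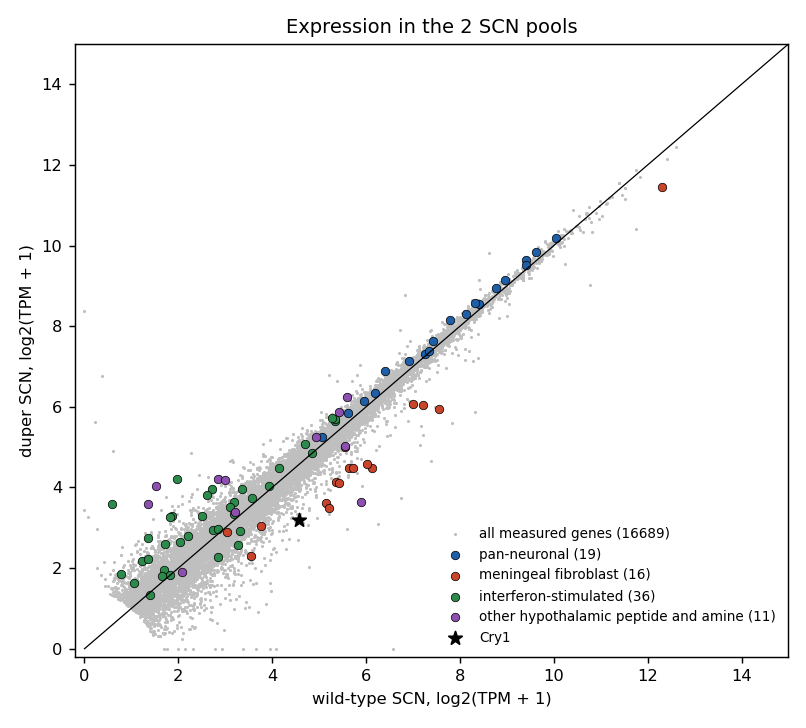
Level of each of the 16689 genes in the wild-type SCN pool (x axis) and the *duper* SCN pool (y axis), both as log2(TPM + 1), with the line of equal level; *Cry1* and 4 gene lists are marked. The 19 pan-neuronal genes lie just above the line, all 16 meningeal fibroblast genes lie below it, and 31 of 36 interferon-stimulated genes lie above it.

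How often a gene was called depended on its counts. In the quintile of genes with the fewest summed counts (30 to 173), 11.4% were higher and 10.2% lower, and the quartiles of the ratio were −0.39 and 0.35. In the quintile with the most counts, 0.0899% were higher and 0.719% lower, with quartiles of −0.04 and 0.12. For several lists, the share in the count quintile of the list's median gene is therefore given below. Among the 10492 genes with at least 500 counts, the median ratio moved from −0.01 in the quintile with the shortest transcripts to 0.05 in the quintile with the longest, so transcript length moved little with the ratio. In that set 2.19% of genes were past 0.58 in either direction, against 1.20% of 7014 genes with at least 500 counts in the cortex pair. The cortex libraries were closer in depth, with 6788947 counts in wild type and 10391925 in *duper*. Counting error at the same summed count was thus larger in SCN, and the 2 shares are not like for like.

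*Cry1*, the repressor that the *duper* allele disrupts, had 22.9 TPM in the wild-type SCN from 831 counts and 8.14 TPM in the *duper* SCN from 69 counts. Its log2 ratio was −1.39 (interval −1.87 to −1.14), so the targeted gene went with the label of the pool. The transcript table assigned the SCN reads of *Cry1* unevenly. In wild type, 361 counts went to the transcript of 2930 bases, 15.2 to that of 2414 bases and 455 to that of 2270 bases, and in *duper* the 3 transcripts had 10.9, 58.1 and 0. The *duper* cortex showed another split, with 16.4, 0 and 71.6 counts, so the assignment differed between tissues of the same hamsters and only the sum over transcripts is used here.

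The genes that neighbour *Cry1* in the annotation showed little difference. Of the 20 nearest measured genes, 10 on each side, 1 was higher, none was lower by this rule, and the median log2 ratio was −0.04. The one higher gene was *LOC110343474*, the nearest measured gene on its side of *Cry1* in annotation order. It had 2.35 TPM in the wild-type pool against 6.11 TPM in the *duper* pool from 39 and 24 counts (log2 ratio 1.08, interval 0.58 to 2.15). In cortex its log2 ratio was 0.06.

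The other clock genes stood close to their wild-type levels at this time. Of 26 measured clock genes, 2 were higher, *Per2* among them, and 1, *Cry1* itself, was lower. The list's median was 0.11 against 0.02 over all genes. In the count quintile that holds the list's median of 2599 counts, 0.12% of genes were higher and 1.26% lower. *Per2*, a partner of CRY1 in the repressor complex, stood at 24.0 TPM in the wild-type pool against 37.9 TPM in the *duper* pool from 2147 and 805 counts. Its log2 ratio of 0.64 (interval 0.54 to 0.78) was the largest of the Per genes, since *Per1* had 0.16 (0.03 to 0.31) and *Per3* had 0.06 (−0.07 to 0.18). In cortex the ratio of *Per2* was 0.28 and did not pass 0.58.

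*Cry2*, the paralog of *Cry1*, had 48.0 and 56.6 TPM (log2 ratio 0.23, interval 0.12 to 0.35), which is short of the fold limit.

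The activators were near their wild-type level. *Clock* had 20.7 and 21.0 TPM (log2 ratio 0.02), and *Arntl* had 16.6 and 20.1 TPM (0.26, interval 0.03 to 0.51). Of the repressors of *Arntl*, *Nr1d1* had 63.8 TPM in both pools and *Nr1d2* had 57.4 and 54.9 TPM. The intervals of *Clock*, *Nr1d1* and *Nr1d2* all lay within 0.18 of 0 on the log2 scale, and their n was 1 pool per genotype.

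Among the output factors, *Dbp* had 89.9 and 93.1 TPM (0.05) and *Hlf* had 58.2 and 56.2 TPM (−0.05), while *Tef* had 117 and 143 TPM (0.28, interval 0.21 to 0.35). *Bhlhe41*, a repressor of CLOCK and BMAL1 targets, had 26.5 and 35.7 TPM (0.42, interval 0.27 to 0.59), and *Arntl2*, a paralog of *Arntl*, had 13.9 and 9.88 TPM (−0.45, interval −0.83 to −0.16). *Tef*, *Bhlhe41* and *Arntl2* had intervals clear of 0 without reaching the fold limit. The kinases *Csnk1d* and *Csnk1e* had log2 ratios of −0.04 and 0.17, and *Btrc*, whose product marks PER proteins for degradation, had 0.15.

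**Figure D2:**
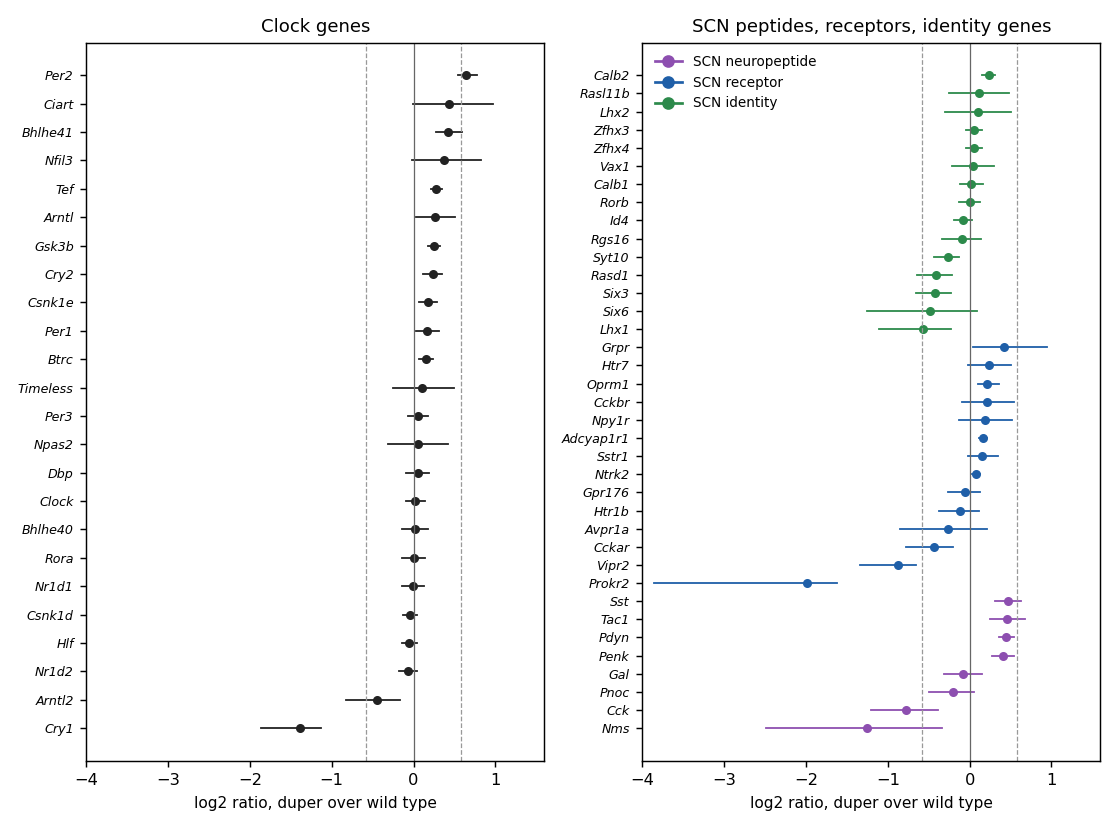
Log2 ratio of *duper* over wild type in SCN (x axis) for 24 clock genes (left) and for the SCN peptide, receptor and identity genes (right). Points are ratios of TPM + 1, bars are 95% counting intervals of the ratio without the added 1, and dashed lines mark −0.58 and 0.58; *Cry1*, *Prokr2*, *Nms*, *Vipr2* and *Cck* lie to the left of the lower line, and *Per2* lies to the right of the upper one.

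The peptide and receptor genes of the SCN diverged from one another. *Vip*, *Avp* and *Grp*, the peptides that define the core and shell of the nucleus, were not found under these symbols and were not analysed here. *Nms*, which encodes neuromedin S and marks a large group of SCN neurons, stood at 33.5 TPM in the wild-type pool against 13.4 TPM in the *duper* pool, from 94 and 9 counts (log2 ratio −1.26, interval −2.49 to −0.33), and was listed at 0 in both cortex pools. Of the 8 SCN peptide genes measured, *Nms* and *Cck* were lower and none was higher. In the count quintile that holds the list's median of 975.5 counts, 2.79% of genes were lower.

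*Cck*, the cholecystokinin gene, had 71.3 and 41.3 TPM from 430 and 58 counts (−0.77, interval −1.21 to −0.39). The other 6 peptides stayed short of the fold limit. *Sst* (somatostatin) had 197 and 273 TPM, *Tac1* (substance P) 47.5 and 65.6, *Pdyn* (dynorphin) 108 and 148 and *Penk* (enkephalin) 112 and 148, with log2 ratios from 0.40 to 0.47. *Gal* and *Pnoc* had log2 ratios of −0.08 and −0.21. Since both directions occur, the list's median of 0.16 describes no single member, and it was 0.40 when the limit on counts was dropped, which let in *Nmu* (6 and 4 counts). *Prok2*, the SCN output peptide prokineticin 2, had 11 counts in wild type and 1 in *duper* and was below the limits.

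*Prokr2*, the receptor of prokineticin 2, was lower, with 8.42 TPM in the wild-type pool against 1.37 TPM in the *duper* pool from 208 and 8 counts (log2 ratio −1.99, interval −3.85 to −1.62). In cortex it had 5.46 and 3.07 TPM. *Vipr2*, through which SCN neurons receive vasoactive intestinal peptide, had 12.5 and 6.32 TPM from 678 and 81 counts (−0.88, interval −1.34 to −0.65), and in cortex both of its levels were under 0.5 TPM. *Prokr2* and *Vipr2* were the 2 lower genes of the 14 SCN receptor genes measured, none was higher, and the list's median was 0.12. In the count quintile that holds the list's median of 776.5 counts, 2.79% of genes were lower.

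*Cckar*, a cholecystokinin receptor, followed with 10.4 and 7.45 TPM (−0.44, interval −0.78 to −0.20). *Grpr*, which binds gastrin-releasing peptide, had the highest ratio of the list, with 4.60 and 6.51 TPM (0.42, interval 0.04 to 0.94), and *Htr7*, a serotonin receptor, the next, with 12.1 and 14.4 TPM (0.23). *Adcyap1r1*, the receptor for the retinal peptide PACAP, had 156 and 175 TPM (0.17), and *Avpr1a*, a vasopressin receptor, had 7.25 and 5.90 TPM with an interval that spans 0 (−0.85 to 0.21).

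None of the 15 genes of SCN identity was higher or lower, and their median ratio was 0.00. *Calb1* (calbindin), which marks a cell group of the hamster SCN, had 114 and 116 TPM. The transcription factors *Zfhx3* (16.9 and 17.6 TPM), *Zfhx4* (18.0 and 18.7 TPM) and *Rorb* (17.7 TPM in both) had log2 ratios between 0.00 and 0.05. *Calb1* and *Rorb* are not particular to the SCN, since the wild-type cortex pool had 123 and 28.6 TPM. Of the 15 genes, 4 had intervals below 0 and 1 had an interval above 0.

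Other identity genes leaned lower without passing the fold limit. *Rasd1* had 41.7 and 31.0 TPM (−0.41, interval −0.64 to −0.22), and *Syt10* had 19.2 and 15.8 TPM (−0.26, interval −0.43 to −0.12). *Lhx1*, a transcription factor of SCN development, had 7.78 and 4.94 TPM (−0.56, interval −1.11 to −0.22), but its counts of 223 and 55 gave a log2 ratio of 0.03 when scaled to the library total (TMM-normalized CPM), so its direction depended on the scaling. *Six3* had 34.2 and 25.1 TPM (−0.43, interval −0.66 to −0.23) and *Six6*, expressed in the developing SCN and retina, had 142 and 23 counts (−0.48, interval −1.25 to 0.09). *Calb2* (calretinin) was at the other end with 289 and 340 TPM (0.23), next to *Rasl11b* (0.12).

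General neuronal genes sat slightly above their wild-type level as a group. All 19 pan-neuronal genes had ratios above 0, from 0.05 for *Syn2* to 0.47 for *Nefm*, with a median of 0.19. None passed the fold limit. *Nefm* and *Nefl*, which encode neurofilaments of axons, were the highest, with 84.1 and 117 TPM (0.47) and 222 and 285 TPM (0.36), and *Celf4* and *Syn2* were the lowest, with 161 and 167 TPM and 151 and 157 TPM. The summed level of the list was 6190 TPM in the wild-type pool against 7056 TPM in the *duper* pool, and in cortex, where its median ratio was 0.00, it was 10755 and 10829 TPM.

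The genes of GABA neurons did not share this lean in full. *Gad1* and *Gad2*, which encode the enzymes that make GABA, had 202 and 208 TPM and 264 and 290 TPM, and *Slc32a1*, the vesicular GABA transporter, had 119 and 131 TPM, with log2 ratios of 0.05, 0.14 and 0.14. *Dlx2* and *Dlx5*, developmental factors of these neurons, had ratios of −0.37 and −0.33 with intervals that include 0. The list's median was 0.05 over 9 genes, with none higher or lower. The 28 transmitter receptor genes had a median of 0.11, with 25 above 0 and none past the limit, from *Grin2c* (−0.21) and *Gabra5* (−0.08) to *Grm5* and *Glra2* (both 0.39). Cell counts were not part of these data, and in such mixed tissue fewer cells of a type and less RNA per cell cannot be told apart.

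Immediate early genes, which neurons switch on with activity and which light at night induces in the SCN, were low in both pools and went both ways. Of 23 measured, 2 were higher and 3 lower, with a median of 0.01. In the count quintile that holds the list's median of 356 counts, 3.92% of genes were higher and 7.51% lower. *Fosb* had 0.562 and 1.91 TPM from 31 and 25 counts (log2 ratio 0.90). *Nr4a2* had 2.01 and 4.36 TPM from 94 and 51 counts (0.83). *Fos* had 8.93 and 12.2 TPM (0.41, interval 0.08 to 0.80) and *Egr1* 7.66 and 10.9 TPM (0.45, interval 0.19 to 0.81). *Fosb* met the TPM limit only through the *duper* pool, and *Ccn1*, given next, only through the wild-type pool. The lower genes were *Ccn1* with 2.40 and 0.607 TPM (−1.08), *Klf4* with 8.94 and 4.20 TPM (−0.93) and *Btg2* with 6.44 and 3.88 TPM (−0.61), which vascular and connective tissue cells also express.

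Peptide genes of neighbouring hypothalamic nuclei spread from −2.25 to 2.50. Of 11 measured genes of this list, 5 were higher and 1 was lower, against shares of 3.92% and 7.51% in the count quintile that holds the list's median of 244 counts. *Kiss1* (kisspeptin) stood at 1.89 TPM in the wild-type pool against 15.3 TPM in the *duper* pool from 13 and 25 counts (log2 ratio 2.50, interval 2.00 to 4.11). *Ucn3* (urocortin 3) had 1.55 and 11.0 TPM from 25 and 42 counts (2.23, interval 2.08 to 3.60). *Kiss1* had too few counts in the wild-type pool to meet the count limit had the *duper* pool stood at the wild-type level.

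*Pomc*, the precursor of melanocortins in the arcuate nucleus, had 6.17 and 17.4 TPM (1.36, interval 0.93 to 2.05). *Npy*, its counterpart in feeding neurons, had 6.99 and 17.0 TPM from 45 and 26 counts (1.17, interval 0.53 to 2.01), and *Tac3*, the tachykinin made by kisspeptin neurons, had 47.1 and 74.7 TPM (0.65, interval 0.40 to 0.93). In the opposite direction, *Pmch*, the melanin-concentrating hormone gene of the lateral hypothalamus, had 58.2 and 11.4 TPM from 471 and 22 counts (−2.25, interval −3.03 to −1.73). *Hcrt*, the orexin gene of the same region, had 14 counts in wild type and 0 in *duper* and did not reach the count limit. *Pomc*, *Npy* and *Tac3*, which the arcuate nucleus makes, were thus higher and *Pmch* was lower. *Cartpt*, made in both regions, was at −0.52 (interval −0.92 to −0.15). *Npy* and *Tac3* are not particular to the arcuate nucleus, since wild-type cortex held 253 and 35.5 TPM of them. Whether arcuate tissue had a part in these values was not tested.

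The transcription factors of neighbouring nuclei spread less. *Lhx8* was higher, with 5.16 and 12.9 TPM from 147 and 87 counts (1.17, interval 0.92 to 1.71), and the other 12 measured were neither higher nor lower, from *Foxb1* (−0.44) to *Nkx2-1* (0.47). *Sim1*, a factor of the paraventricular nucleus, had 7.95 and 6.34 TPM, and *Esr1*, the estrogen receptor of the preoptic and arcuate regions, 6.79 and 7.25 TPM (0.08).

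Since *Lhx8* marks cholinergic neurons of the basal forebrain, other genes of these neurons were then looked up, a list chosen after values had been seen. Of 10 measured, 6 were higher and none lower, against 3.27% of all genes and 3.92% of the count quintile that holds the list's median of 217 counts. Since the list was built because *Lhx8* was high, this count is no evidence. *Chat*, which encodes the enzyme that makes acetylcholine, had 2.62 and 9.40 TPM from 112 and 88 counts (1.52, interval 1.42 to 2.26). *Slc10a4*, a vesicle transporter of these neurons, had 1.99 and 6.48 TPM (1.32), and *Ngfr*, a receptor of nerve growth factor, 2.30 and 6.51 TPM (1.19). *Slc5a7*, the choline transporter, had a log2 ratio of 0.76. *Ache*, which other neurons express as well, had 133 and 143 TPM (0.11), and in cortex *Chat* had 0.652 and 1.08 TPM.

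Markers of forebrain regions outside the hypothalamus went both ways. The cortical projection list had a median of 0.05, with 7 of 13 genes above 0. In the count quintile that holds its median of 447 counts, 7.51% of genes were lower. Of 13 cortical projection genes, 3 were lower: *Neurod6* with 2.26 and 0.284 TPM (−1.34), *Slc17a7*, the vesicular glutamate transporter of cortical neurons, with 8.61 and 3.65 TPM (−1.05), and *Slc30a3* with 4.64 and 2.19 TPM (−0.82). The highest were *Fezf2* (0.50) and *Tbr1* (0.42). The summed level of the list was 556 TPM in the wild-type SCN and 559 TPM in the *duper* SCN, against 5517 and 4705 TPM in cortex, so its sum was nearly the same in the SCN pools. Most of that sum came from *Nrgn* (312 and 322 TPM) and *Camk2a* (170 and 163 TPM), which neurons of other regions also express.

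Of 10 striatal and thalamic genes, *Ppp1r1b* (42.1 and 19.7 TPM, log2 ratio −1.06) and *Drd1* (10.4 and 5.17 TPM, −0.89) were lower. The list's median in SCN was 0.04, with 6 of 10 above 0. In the count quintile that holds its median of 711.5 counts, 2.79% of genes were lower. The D2 receptor gene *Drd2*, of the other class of striatal neuron, had 13.3 and 12.4 TPM, and *Slc17a6*, the glutamate transporter of thalamus and hypothalamus, had 85.5 and 105 TPM (0.29), with *Prkcd* next at 0.27. In the cortex pair 7 of the 10 were lower, against 3.12% of all genes measured in cortex. The median there was −1.36, farther from 0 than in the SCN pair.

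A pituitary hormone gene had the highest ratio of all genes with an assigned symbol. *Cga*, which encodes the subunit shared by the glycoprotein hormones, had 0.168 TPM in the wild-type pool (1 count) against 47.9 TPM in the *duper* pool (82 counts) (log2 ratio 5.39, interval 5.64 to 13.5). It was at 0 in both cortex pools and entered the comparison through the *duper* pool alone. Of the other pituitary genes, *Lhb* had 7.12 and 5.46 TPM. In counts, *Fshb* had 0 and 4, *Tshb* 0 and 2, *Gh1* 0 and 2, *Tbx19* 0 and 1 and *Hesx1* 3 and 0. The defining factors *Pou1f1* and *Pitx1* were listed at 0 in both pools. *Gh* and *Prl* were not found under these symbols and were not analysed here. Whether pituitary tissue had a part in these values was not tested. Over the 2 measured genes of the list the summed level was 7.29 TPM in the wild-type pool against 53.4 TPM in the *duper* pool.

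Genes of the meninges, the membranes that cover the brain, had the lowest median of the 28 lists plotted here. Their fibroblasts make collagens, small proteoglycans and retinoic acid. Of 16 meningeal fibroblast genes, 14 were lower in *duper* and none was higher, against 4.49% of all genes and 1.26% of the count quintile that holds the list's median of 1954 counts. The list's median was −1.23, and the 14 genes were between 1.72-fold and 3.53-fold lower in TPM.

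*Lum* (lumican) stood at 36.1 TPM in the wild-type pool against 10.2 TPM in the *duper* pool (log2 ratio −1.72, interval −2.21 to −1.45), and *Dcn* (decorin) had 68.4 and 21.2 TPM from 1741 and 126 counts (−1.64, interval −1.96 to −1.43). Both encode proteoglycans that bind collagen. The collagen genes *Col3a1* (34.4 and 11.3 TPM), *Col1a1* (10.7 and 3.90 TPM) and *Col1a2* (40.3 and 16.4 TPM) had log2 ratios of −1.53, −1.26 and −1.25. *Crabp2*, which carries retinoic acid, had 188 and 60.9 TPM (−1.61), and *Aldh1a2*, which makes it, 48.7 and 21.5 TPM (−1.14).

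*Ptgds*, the prostaglandin D synthase that meninges and oligodendrocytes make in bulk, was among the most abundant transcripts of the SCN pools, with 5043 TPM in the wild-type pool (48756 counts) against 2802 TPM in the *duper* pool (6421 counts) (−0.85, interval −0.89 to −0.81). *Bgn* (−0.55, interval −0.82 to −0.32) and *Foxd1* (−0.16, interval −0.60 to 0.22) were the 2 genes of the list that were not lower by the rule. In all 16 genes the wild-type SCN pool was the highest of the 4 brain pools, and in 15 the *duper* SCN pool was still above both cortex pools. In the cortex pair the list's median was 0.01, with none higher and 1 lower.

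**Figure D3:**
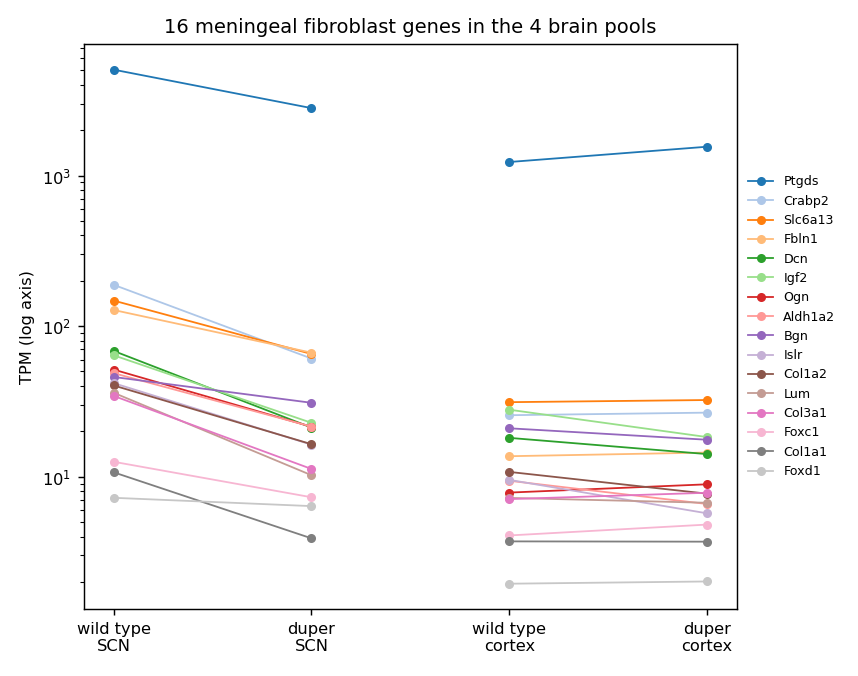
Level of the 16 meningeal fibroblast genes in the 4 brain pools, in TPM on a log axis, with a line joining the wild-type and *duper* pool of a tissue. Every line slopes down in SCN, while the cortex lines are near level, with a median log2 ratio of 0.01.

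Other genes of the leptomeninges, picked after values had been seen, went the same way. The transporters *Slc13a4* (65.5 and 24.1 TPM, log2 ratio −1.40) and *Slc22a8* (48.3 and 18.1 TPM, −1.37), the transcription factor *Osr1* (19.4 and 5.58 TPM, −1.64) and the gap junction gene *Gjb2* (50.2 and 24.1 TPM, −1.03) were all lower. All 8 such genes that met the limits were lower, with a median of −1.20, a count that the choice after the fact makes no evidence. The summed level of the fixed list was 5967 TPM in the wild-type SCN and 3184 TPM in the *duper* SCN, and 1428 and 1730 TPM in cortex. How much meninges each dissection carried was not measured.

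Meningeal genes were also among the genes enriched in SCN over cortex. A set of 343 genes had at least 500 counts over the brain pools and a level 2 to 4 times that of cortex (averaged over the genotypes). Of these, 58 were lower in the *duper* SCN (16.9%) and 5 higher. In the 2 meningeal lists were 13 of the 58, but 1 of these lists was chosen after values had been seen. How many of the 343 were in the lists was not counted, so this overlap is no evidence. Of the 74 genes enriched more than 4 times, 7 were lower and 2 higher, with a median of 0.05. Of 10386 genes at like levels in both tissues, 1.48% were lower. The median ratio of the first set was −0.06, close to that of the rest.

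Choroid plexus and ependymal genes were split. Of 13 measured, none was higher and 5 were lower, against 4.49% of all genes and 7.51% of the count quintile that holds the list's median of 373 counts. The list's median was −0.18. *Ttr* (transthyretin), the main product of the choroid plexus, had 165 and 24.1 TPM from 1185 and 41 counts (−2.73, interval −3.26 to −2.33), and *Kcnj13*, a potassium channel of that epithelium, 11.6 and 2.10 TPM (−2.03). *Sostdc1* (5.04 and 1.01 TPM) and the water channel *Aqp1* (10.2 and 3.75 TPM) had log2 ratios of −1.59 and −1.23. Other choroid plexus genes were level, among them *Kl* (1.23 and 1.26 TPM, 0.02) and *Slc4a5* (9.66 and 10.6 TPM, 0.12). *Cldn2*, a tight junction gene of the same epithelium that is not in the list, had 3.74 and 0.402 TPM (−1.76).

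Genes of ciliated ependyma differed less. *Dynlrb2* was lower with 29.9 and 19.0 TPM (−0.63, interval −1.27 to −0.08), whereas *Foxj1*, the master factor of motile cilia, had 8.62 and 7.49 TPM and *Ccdc153* 37.1 and 30.7 TPM. *Clic6*, a choroid plexus gene, was at the other end with 9.08 and 13.1 TPM (0.48), and *Tmem212* was at 0.26. The summed level of the list was 331 TPM in the wild-type pool against 155 TPM in the *duper* pool, and both cortex pools were above that, with 1947 and 2668 TPM.

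Tanycyte genes had a median of −0.05 over 8 genes. *Vim* (vimentin), which fibroblasts, tanycytes and endothelium share, was the one lower gene, with 333 and 147 TPM from 8671 and 908 counts (−1.17, interval −1.28 to −1.08), and *Nes* was next at −0.31. Genes more particular to tanycytes, *Gpr50* (2.06 and 2.14 TPM), *Dio2* (1.63 and 1.76 TPM) and *Col25a1* (33.7 and 35.3 TPM), had log2 ratios of 0.04, 0.07 and 0.07.

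Vessel genes were near 0. Of 13 endothelial genes 1 was lower, *Itm2a*, with 155 and 98.5 TPM (−0.65, interval −0.79 to −0.52), and the median was 0.03. *Pecam1* had a log2 ratio of −0.49 and the VEGF receptor gene *Flt1* 0.41, with *Emcn* next at 0.28, while *Cldn5*, of the tight junctions of the blood-brain barrier, had 66.1 and 74.7 TPM. Of 10 mural cell genes, *Vtn* (50.5 and 27.3 TPM, −0.86) and the smooth muscle actin gene *Acta2* (39.1 and 25.2 TPM, −0.61) were lower. Of all genes 4.49% were lower. The pericyte genes *Rgs5*, *Kcnj8* and *Abcc9* had log2 ratios of 0.07, 0.21 and 0.40.

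Red blood cell genes were lower. *Alas2*, the heme synthesis enzyme of red cell precursors, had 17.4 and 5.50 TPM (−1.50, interval −2.19 to −1.17) and was the one gene of its list to meet the limits. The 4 LOC genes that the study names as hemoglobin, looked up after values were seen, had a summed level of 5630 TPM in the wild-type pool against 2061 TPM in the *duper* pool. All 4 were lower, against 4.49% of all genes. In cortex, where the sums were 1423 and 824 TPM, all 4 were lower as well, against 3.12%. The study names them among genes that it called different in these same libraries, so these counts are no evidence.

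**Figure D4:**
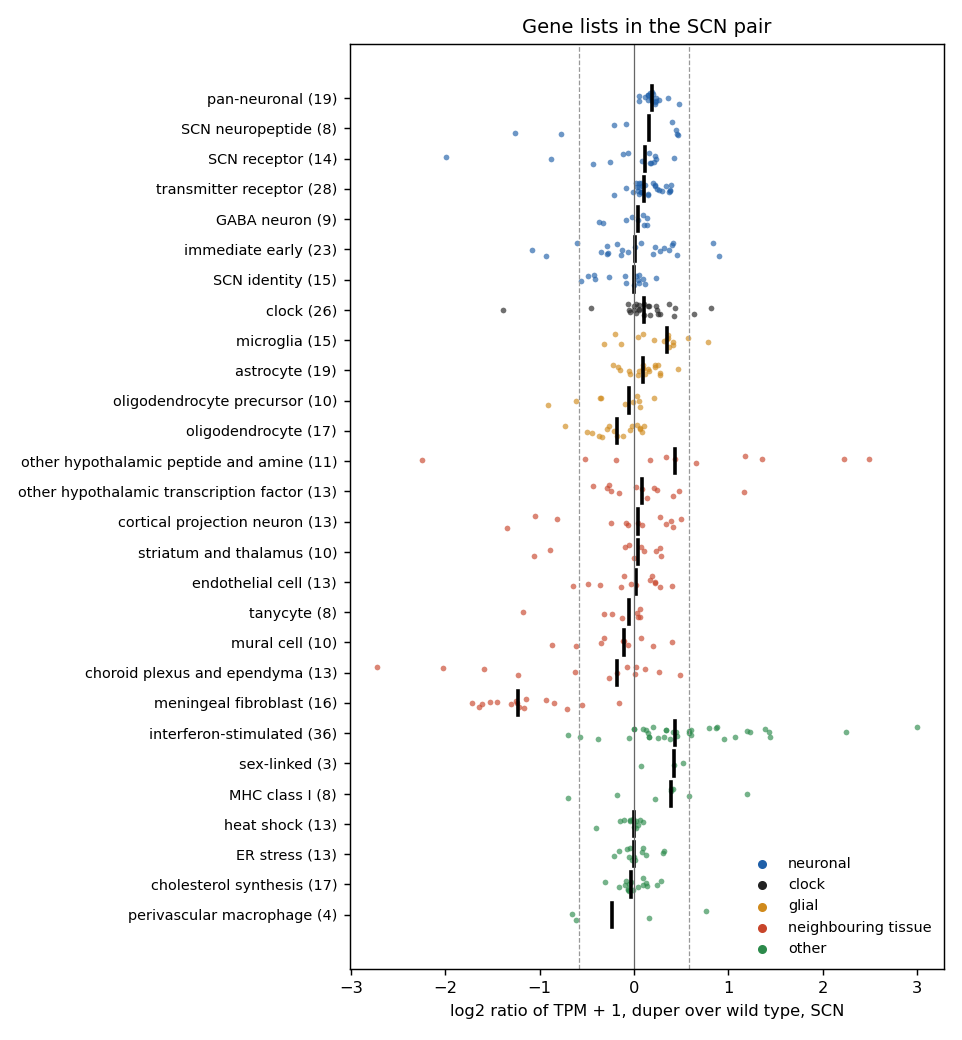
Log2 ratio of TPM + 1, *duper* over wild type in SCN (x axis), for each measured gene (points, scattered vertically for view) of 28 lists, with the list's median as a black bar, the number of genes in brackets and dashed lines at −0.58 and 0.58. The meningeal fibroblast list is centred at −1.23, while the neuronal list medians lie between 0.00 and 0.19.

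Astrocyte genes were nearly level. None of 19 was higher or lower, with a median of 0.10. *Ntsr2*, a neurotensin receptor, had the highest ratio, with 45.7 and 63.7 TPM (0.47), followed by *Slc1a2* (0.28), and *Gpc5* was near the other end (−0.17). *Aqp4*, the water channel of astrocyte endfeet, had 229 and 220 TPM and *Aldh1l1*, a general astrocyte marker, 18.8 and 20.1 TPM. The summed level of the list was 6500 TPM in the wild-type pool against 6854 TPM in the *duper* pool.

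Oligodendrocyte genes leaned lower. Their median was −0.18 over 17 genes, of which 12 were below 0 and 1 was lower by the rule. That gene, *Cldn11*, encodes the claudin of myelin, which meningeal and ependymal barriers also use, and had 509 and 306 TPM (−0.73, interval −0.81 to −0.66). *Mal* was next with 531 and 376 TPM (−0.50). *Aspa* and *Hapln2*, at the other end, had 0.09 and 0.10, so the list was not uniform. In cortex the same list leaned the other way, with a median of 0.35 and 3 of 17 genes higher, against 4.10% of all genes.

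Genes of oligodendrocyte precursors had a median of −0.05, and 2 of 10 were lower, against 4.49% of all genes. *Bmp4* (14.1 and 7.03 TPM, −0.91) and *Enpp6* (5.08 and 2.98 TPM, −0.61), both of newly forming oligodendrocytes, were lower, whereas the precursor marker *Pdgfra* had 38.0 and 35.5 TPM (−0.10), *Cacng4* had 0.06 and *Tnr*, at the top, 0.21.

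Microglial genes leaned higher, with a median of 0.35 and 12 of 15 above 0. *Cx3cr1*, the fractalkine receptor, was the one gene past the limit, with 14.2 and 25.2 TPM from 537 and 227 counts (0.79, interval 0.60 to 1.06), and *Aif1* (IBA1) had 23.7 and 35.7 TPM (0.57, interval 0.14 to 1.02). *Sall1* and *Cd68* had the lowest ratios, −0.32 and −0.20. The complement genes *C1qa*, *C1qb* and *C1qc* had 0.21, 0.42 and 0.32. In cortex *Cx3cr1* was higher as well, with 0.63, and the list's median was 0.17. Of 4 genes of perivascular macrophages, *F13a1* (−0.65) and *Mrc1* (−0.62) were lower and *Siglec1*, an interferon-inducible lectin, was higher (1.92 and 3.97 TPM, 0.76). Of all genes 4.49% were lower and 3.27% higher.

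By number, the list with most higher genes was that of the interferon-stimulated genes, which cells switch on in response to interferons through factors such as STAT2 and IRF9. By share it was not the first, since 44.4% of it were higher against 45.5% of the peptide genes of neighbouring hypothalamic nuclei. Of 36 measured, 16 were higher and 1 was lower, with a median of 0.43. Of all genes 3.27% were higher, and 3.92% in the count quintile that holds the list's median of 229.5 counts. The study had already called *Irf7*, *Isg15* and *Uba7*, all in this list, higher in these same libraries. The counts of this list, here and in cortex, are therefore no evidence. The summed level was 328 TPM in the wild-type pool against 462 TPM in the *duper* pool.

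*Mx2*, a dynamin-like antiviral GTPase, stood at 0.491 TPM in the wild-type pool against 11.0 TPM in the *duper* pool from 17 and 88 counts (log2 ratio 3.01, interval 3.69 to 5.29), and was at 0 in both cortex pools. It met the TPM limit only through the *duper* pool. *Ifit3*, which binds viral RNA complexes, had 2.56 and 8.62 TPM from 73 and 58 counts (1.43), and *Usp18*, which removes ISG15 from proteins, had 1.54 and 5.66 TPM from 38 and 33 counts (1.39). The enzymes that attach ISG15 went the same way, with 2.63 and 8.86 TPM for *Ube2l6* (1.44, interval 0.71 to 2.78) and 4.67 and 8.86 TPM for *Uba7* (0.80, interval 0.56 to 1.27). *Isg15* itself had 2.91 and 17.5 TPM from 21 and 30 counts (2.24, interval 1.74 to 3.47), and its ratio was smaller with TMM-normalized CPM. *Isg15* and *Ube2l6* (20 and 16 counts) would have missed the count limit had the *duper* pool stood at the wild-type level. The RNA sensors *Dhx58* (1.35 and 3.55 TPM) and *Ifih1* (3.12 and 5.27 TPM) had log2 ratios of 0.96 and 0.61.

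The factors that drive the response did not move as one. *Irf7* was higher, with 5.62 and 14.5 TPM from 148 and 90 counts (1.23, interval 0.97 to 1.76). *Stat2* had 16.8 and 21.5 TPM (0.34) and *Irf9* 39.7 and 49.6 TPM (0.31), both short of the fold limit, and *Irf1* had 6.15 and 3.81 TPM (−0.57, interval −1.37 to −0.07). *Mx1*, the paralog of *Mx2*, had 37.9 and 52.0 TPM (0.45), and *Rsad2* (2.54 and 2.53 TPM) and *Cmpk2* (27.6 and 27.7 TPM) were level. *Psmb9*, a subunit of the immunoproteasome, was lower with 8.70 and 4.97 TPM from 133 and 18 counts (−0.70, interval −1.61 to −0.09), while its partner *Psmb8* was higher with 5.14 and 13.1 TPM (1.20). The list was thus uneven, with a part of the list near its wild-type level.

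In cortex 27 of the interferon-stimulated genes met the limits. Of these 6 were higher and none was lower, against 4.10% and 3.12% of all genes measured in cortex, with a median of 0.24. *Uba7*, *Parp14*, *Eif2ak2*, *Ifit2* and *Irf7* were higher in both tissues. *Usp18* and *Ube2l6*, higher in SCN, had cortex ratios of −0.05 and −1.35 from few reads. The LOC genes that the study names as class I or antiviral were again looked up after values were seen. Of these, 6 of 7 were higher in SCN, from 0.63 to 1.27, against 3.27% of all genes. The study names them among genes that it called different in these same libraries, so this count is no evidence. *B2m*, the light chain of class I molecules, had 306 and 357 TPM (0.22, interval 0.11 to 0.33).

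**Figure D5:**
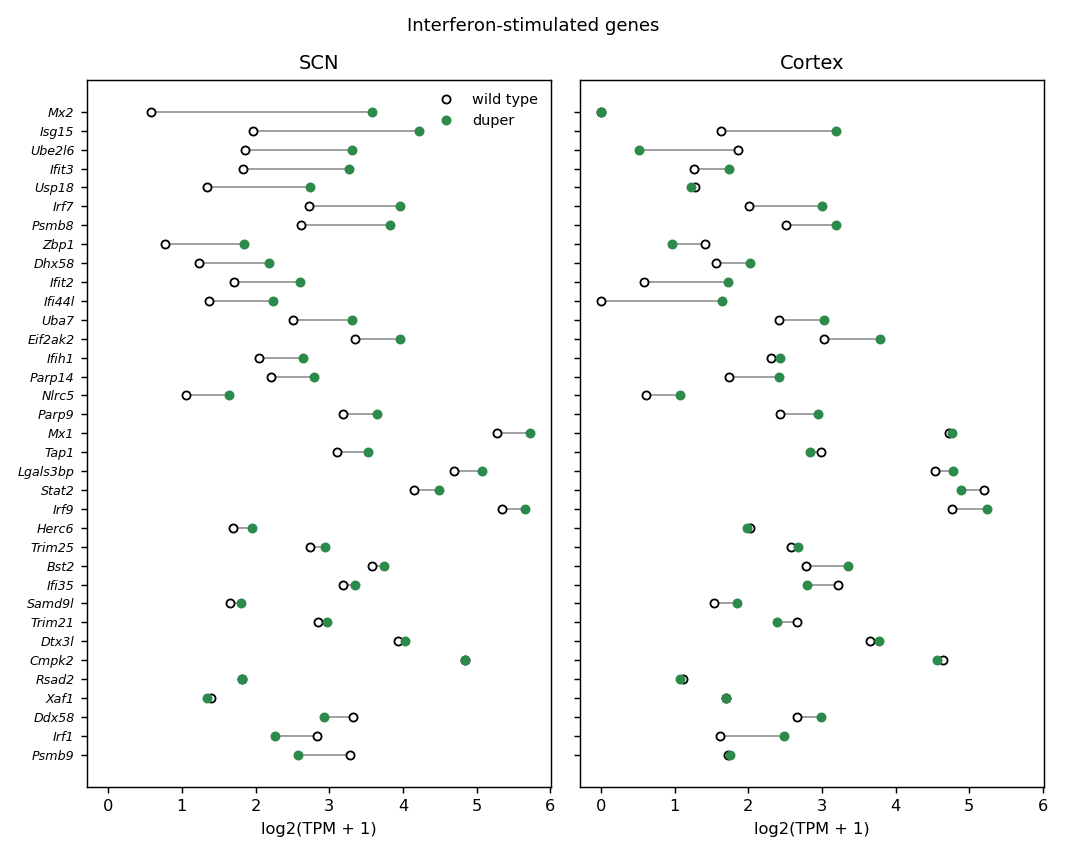
Level of 35 interferon-stimulated genes as log2(TPM + 1) in wild-type (open circles) and *duper* (filled circles) pools of SCN (left) and cortex (right), ordered by the SCN ratio. In SCN 30 of 35 filled circles lie to the right of the open ones, from *Mx2* at the top (log2 ratio 3.01) to *Psmb9* at the bottom (−0.70).

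General cell functions were level. No gene of the heat shock list (13 measured, median 0.00), the unfolded protein response of the endoplasmic reticulum (13, median 0.00) or cholesterol synthesis (17, median −0.03) was higher or lower. The respiratory chain had a median of 0.00 over 73 genes, with 1 higher, *Ndufaf6*, and none lower. Of the sex-linked list, looked at because the pools differed in sex, 3 X-linked genes that can escape inactivation met the limits and none passed the fold limit: *Ddx3x* had 164 and 235 TPM (0.52, interval 0.46 to 0.57), *Kdm5c* 28.3 and 38.4 TPM (0.43) and *Kdm6a* 12.0 and 12.7 TPM (0.08). Whether sex had a part in other ratios was not tested.

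Of 79 ribosomal protein genes, whose median was −0.04, *Rps27* alone was lower, with 317 and 57.2 TPM (−2.45, interval −2.90 to −2.06). *LOC121134231*, to which the study's annotation gives the same product name, went the other way, with 390 and 897 TPM. Their sum was 708 TPM in the wild-type pool against 955 TPM in the *duper* pool, a log2 ratio of 0.43, so the ratio of either gene alone is uncertain. Whether reads were divided between the copies in another way in each pool was not tested.

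Among all genes with an assigned symbol, the 12 with the highest lower bound of the interval were *Cga*, *Mx2*, *Aldh1a3*, *Ucn3*, *Kiss1*, *Jchain*, *Ush1c*, *Isg15*, *Ddx60*, *Chat*, *Cd101* and *Ifit3*. *Ush1c*, which encodes the scaffold harmonin, had the most reads among them, with 4.46 and 18.8 TPM from 207 counts in each pool (1.86, interval 1.79 to 2.36), and was also higher in cortex (0.92). *Aldh1a3*, a retinoic acid enzyme, had 0.731 and 4.75 TPM (1.73, cortex 0.86), and *Jchain*, the joining chain of secreted antibodies, had 2.33 and 12.6 TPM (2.03). The interferon-induced helicase gene *Ddx60* had 0.776 and 3.05 TPM (1.19), and *Cd101* had 0.407 and 1.92 TPM (1.05). *Aldh1a3*, *Ddx60* and *Cd101*, like *Cga* and *Mx2*, met the TPM limit only through the *duper* pool.

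The 12 lowest were *Dcst2*, *Ttr*, *Rps27*, *Cldn2*, *Kcnj13*, *Pmch*, *Igfbp6*, *Prokr2*, *Snai2*, *Il20rb*, *Clec1a* and *Tubb6*. *Dcst2* stood at 6.89 TPM in the wild-type pool against 0.376 TPM in the *duper* pool from 232 and 3 counts (−2.52, interval −6.48 to −2.63). *Igfbp6*, which binds insulin-like growth factor 2, had 14.6 and 2.12 TPM (−2.32), and *Snai2*, a factor of mesenchymal cells, 4.13 and 0.462 TPM (−1.81). *Il20rb* (5.54 and 1.06 TPM), *Clec1a* (2.73 and 0.361 TPM) and the tubulin gene *Tubb6* (18.7 and 4.58 TPM) had log2 ratios of −1.67, −1.45 and −1.82. *Ttr*, *Kcnj13* and *Cldn2* of this set are choroid plexus genes. *Dcst2*, *Cldn2*, *Snai2* and *Clec1a* met the TPM limit only through the wild-type pool.

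Some LOC genes were present in one pool and nearly absent from the other. *LOC101842397* had 94.6 TPM from 594 counts in the wild-type SCN and 0 in *duper*. Counted against a floor of 3 counts in the *duper* library, it was at least 47.9-fold lower, and it was at 0 in the *duper* cortex as well. *LOC121132789*, with 126 counts in wild type and 0 in *duper*, was at least 10.2-fold lower, and *LOC110342464*, with 50 and 0 counts, at least 4.03-fold lower. *LOC110342650* had 76 counts and 1.

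In the other direction *LOC101837256* had 0 counts in wild type and 88 in *duper* (at least 121-fold higher), and *LOC121139381* had 0 and 57 counts (at least 78.2-fold higher). *LOC101843376* (3 and 260 counts), *LOC121138806* (1 and 52) and *LOC121133374* (5 and 64) were nearly absent from wild type. *LOC121139381*, *LOC121138806* and *LOC121133374* had the same pattern in cortex, with log2 ratios of 3.54, 3.41 and 3.63, whereas *LOC101843376* was listed at 0 in both cortex pools. All 5 entered the comparison through the *duper* pool alone.

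Set beside the cortex pair, which came from the same hamsters, most calls of the SCN pair were not repeated. Of the 545 genes higher in SCN, 351 met the limits in cortex and 65 were higher there too (18.5%, against 4.10% of all genes measured in cortex). Of the 750 lower in SCN, 521 met the limits in cortex and 46 were lower there too (8.83%, against 3.12%). A further 27 genes were higher in SCN and lower in cortex, and 53 were lower in SCN and higher in cortex. Genes that pass in one tissue alone are not shown to differ between the tissues, since that difference was not tested.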

How the data were processed

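RNA of the SCN, mixed from 4 hamsters per genotype, was sequenced from 1 stranded mRNA library per pool. The authors assigned reads with Kallisto (version not given in the sources used here), added transcripts up to genes with tximport, and deposited estimated counts, not normalized, and TPM. They also deposited transcript tables with these units and transcript lengths, used here for *Cry1* and for transcript length. Here, log2((*duper* TPM + 1)/(wild-type TPM + 1)) was computed with Python 3.11.15, numpy 2.4.6 and pandas 2.3.3, for genes with a mean TPM of at least 1 and at least 30 counts. Intervals are 95% Clopper-Pearson (scipy 1.17.1) on rounded counts, and the interval step was tested on simulated data. TMM factors came from edgeR 4.0.16 in R 4.3.3. Plots used matplotlib 3.10.9.

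Groups came from the deposited labels. The genes and lists were chosen with earlier results of these data known. Named are *Cry1*, list genes (including the 2 highest and 2 lowest of each neuronal, glial and neighbouring-tissue list), the 12 genes of each direction with the interval bound farthest from 0 among assigned symbols, 5 among LOC symbols, and 5 of each direction that were opposite in cortex. Lists added after values were seen are so described. Some genes are counted in their lists but not reported by name here or drawn in the plots that label genes. With 1 library per genotype no test was made. The BCM_Maur_2.0 annotation served only for names and neighbours, and promoter sequences, product names for every gene and liver transcript tables were not used here. No paired analysis was possible because each group held 1 library. The settings tried as alternatives were another pseudocount, TMM scaling, other limits on counts, level and fold, and symbols without LOC genes.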

Additional observations from a re-analysis of the deposited data

Results flagged for a closer look

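Results are given here where a gene was past the limits in one direction in the SCN pair and in the other direction in the cortex pair. With 1 library per side the difference between the tissues was not tested. The difference given is the log2 ratio in SCN minus that in cortex.

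*Npy* had 6.99 and 17.0 TPM in the wild-type and *duper* SCN but 253 and 125 TPM in cortex, a difference of 2.18. *Nr4a2*, an activity-induced receptor gene, was higher in SCN (0.83) and lower in cortex (−0.73), a difference of 1.57. *LOC101831958* (difference 3.49), *LOC101836914* (2.68), *Saysd1* (2.37), *Bean1* (2.13) and *Ndufaf6* (1.23) had the same pattern, the first 4 from fewer than 100 counts in every library.

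In the other direction, the choroid plexus gene *Cldn2* had 3.74 and 0.402 TPM in the SCN pair and 6.35 and 12.5 TPM in the cortex pair, a difference of −2.64. The cilia genes *Tekt4* and *Dynlrb2* were lower in SCN and higher in cortex, with differences of −3.37 and −1.93. *Ctxn3* had 14.2 and 5.38 TPM in the SCN pair against 2.05 and 9.44 TPM in the cortex pair (−3.02). *LOC121135971* had 52.7 and 21.6 TPM in the SCN pair against 0 and 29.4 TPM in the cortex pair (−6.18), and *LOC121137333* had −3.07. Of the 12 choroid plexus and ependymal list genes measured in cortex, 4 were higher there, *Dynlrb2* among them, and 1, *Kl*, was lower (−0.90), against 4.10% and 3.12% of all genes, and whether the share of this tissue in each dissection had a part was not tested.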

How the results depend on the processing

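With 1 library per genotype no sample could be left out, no test could be made and no paired analysis was possible because each group held 1 library, so the spread between hamsters, dissections and library preparations was not measured. The counts of higher and lower genes depended on the limits. They were 319 and 304 with at least 30 counts in the *duper* library, 251 and 409 with a mean TPM of at least 5, 150 and 271 with a log2 ratio past 1, and 250 and 476 with LOC genes left out, against 545 and 750. The other settings (a pseudocount of 0.1, TMM-normalized CPM, TPM rescaled by TMM factors, no count minimum, no condition on the interval) gave 530 to 781 higher and 744 to 954 lower genes. The median of the SCN peptide list was 0.40 with at least 30 counts in *duper* or with no count minimum, against 0.16. The ratio of *Cry1* and the medians of the other main lists moved by less than their counting error. No value past the limits changed sign. Gene ratios moved beyond counting error for *Mx2* (4.23), *Aldh1a3* (2.54), *Ddx60* (1.85) and *Cd101* (2.00) with a pseudocount of 0.1, and for *Lhx1* (0.03) with TMM-normalized CPM. Depth in *duper* limits scarce genes most: 9 counts of *Nms* or 8 of *Prokr2* leave intervals of over 2 log2 units. Promoter motifs could not be searched, since no promoter sequences were used here.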
